A study of Rattus norvegicus with 102 samples.

Results

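The motile cilium axoneme genes are the genes of the deposited table whose symbol begins with Dnaaf, Rsph, Tekt, Cfap, Hydin or Spef, or with Dnah, Dnai or Spag and a number. The rule on symbols took 56 of 26689 genes, with 55 distinct symbols, since Cfap46 stands in 2 rows with different Ensembl identifiers. The rule also names Foxj1, the forkhead factor that switches on motile cilium genes; it has no values under that symbol here and was not analysed here. Of the 56 genes, 51 averaged 5 or more normalized counts over all libraries and entered the tests over all rats. The other 5 genes (Spag11a, Spag11b, Spag16, Cfap58 and Rsph4a) stayed below that mean.

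The libraries hold poly-A RNA, sequenced on the Ion Proton, from 34 male Fischer 344 rats, each of which gave a library of the dentate gyrus (DG), of CA1 and of CA3. Each rat was young (5 to 6 months, 10 rats) or aged (17 to 22 months, 24 rats), and after a water maze the aged rats were classed as unimpaired (AU, 12 rats) or impaired (AI, 12 rats) in spatial memory. Each library is 1 hand-dissected subfield of 1 rat. The rat identifiers fall into an R9 series (16 rats: 5 young, 6 AU and 5 AI) and an R1-R2 series (18 rats: 5 young, 6 AU and 7 AI). What sets the series apart is not given in the labels. The methods describe 2 testing sites whose numbers of young and aged rats are those of the 2 series, but no label ties a rat to a site.

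A motile cilium beats because dynein motors walk along a ring of microtubule doublets, the axoneme. Outer and inner dynein arms drive the sliding, radial spokes and the central apparatus regulate it, and tektins and other filament proteins hold the doublets. In the brain, motile cilia are known from the ependymal cells that line the ventricles and move cerebrospinal fluid, and from the choroid plexus in fewer numbers, whereas neurons and astrocytes carry a single immotile primary cilium. Several families that the symbol rule takes also have members with other uses, such as Spag9, a scaffold of kinase signaling and vesicle transport, and Spag5, a protein of the mitotic spindle.

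Recovered reads per library ranged from 4478984 to 21467303. The labelled subfield was checked with 5 markers each of CA1, CA3 and DG neurons. A set's score was its mean log2(normalized count + 1), with each gene centered on its mean over all libraries. In 54 of 54 R1-R2 libraries the markers of the labelled subfield scored highest of the 3 sets. In the R9 series this held in 26 of 48 libraries: 14 of 16 labelled CA1, 1 of 16 labelled CA3 and 11 of 16 labelled DG. The subfield names of the R9 libraries are therefore the labels only. Some margins were small: the DG library of rat R9874 scored 0.62 for CA3 and 0.59 for DG. Others were wide: the CA3 library of rat R9879 scored 1.43 for CA1 and -0.64 for CA3. Counts of called genes or median differences are also given without the 22 libraries whose markers pointed to another subfield. That setting was added after the data were seen, and it leaves 1 R9 library labelled CA3, which is assumed to vary like the other groups and itself lists 9 of the 51 tested axoneme genes at 0, Cfap44 among them. The libraries in which the most tested axoneme genes were at 0 were a CA1 library of the R1-R2 series (22 of 51, beside 1992 of all 16374 tested genes) and a CA1 library of the R9 series (13 of 51, beside 1280 genes). In bulk tissue, fewer cells of a type and less RNA per cell cannot be told apart.

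In the R1-R2 rats, most of the axoneme genes tested were higher in CA3 than in CA1, and 16 had a median under 10 normalized counts in DG. Of 50 tested, 33 were higher in CA3 than in CA1 and 2 were lower (limma on log2 of the normalized count plus 1, Benjamini-Hochberg adjusted p under 0.05). The 35 called are 70.0% of the axoneme genes, beside 21.8% of all genes called in that comparison. Against DG, 28 were higher in CA3 and 3 were lower, 62.0% beside 22.2% of all genes. The median log2 difference of the axoneme genes was 1.14 for CA3 against CA1 and 1.2 for CA3 against DG, where that of all genes tested was -0.0012 and -0.004. Between CA1 and DG, 12 were higher in CA1 and 6 higher in DG, 36% of the axoneme genes beside 14.3% of all genes.

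In the R9 rats few of these genes were called. Tekt5 was called higher in CA3 than in CA1 and was the single axoneme gene called of 51 in that comparison, 1.96% beside 4.96% of all genes. For CA3 against DG, 3 were higher and 4 lower, 13.7% beside 27.2%, and for CA1 against DG 4 were higher and 6 lower, 19.6% beside 36.3%. The median log2 differences of the axoneme genes were -0.12, -0.07 and 0.04. Without the 22 libraries led by markers of another subfield, the counts in the R9 series were 13 for CA3 against CA1 (2 higher and 11 lower in the 1 CA3 library left), 11 for CA3 against DG (1 higher and 10 lower) and 13 for CA1 against DG (5 higher and 8 lower). These are 25.5%, 21.6% and 25.5% of the axoneme genes tested, beside 21.9%, 23.8% and 43.7% of all genes under the same setting. The CA3 library left lists 1179 of the 16374 tested genes at 0.

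The difference between the series was itself tested on differences within rats. For CA3 against CA1 it was called for 25 of 51 axoneme genes, 24 of them toward higher values in CA3 of the R1-R2 rats, beside 13.7% of all genes. For CA3 against DG it was called for 28, all 28 in that direction, beside 18.2% of all genes, and for CA1 against DG for 4, beside 5.48%. Without the 22 libraries, and without pairing within rats, CA3 of the R9 series is a single library. There the median series difference of the axoneme genes was 1.16 for CA3 against CA1 and 0.87 for CA3 against DG. Those of all genes were 0.048 and 0.049. For CA1 against DG 0 of 50 were called, beside 0 of all genes. With each rat left out in turn the count of 4 ran from 1 to 8.

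**Figure D1:**
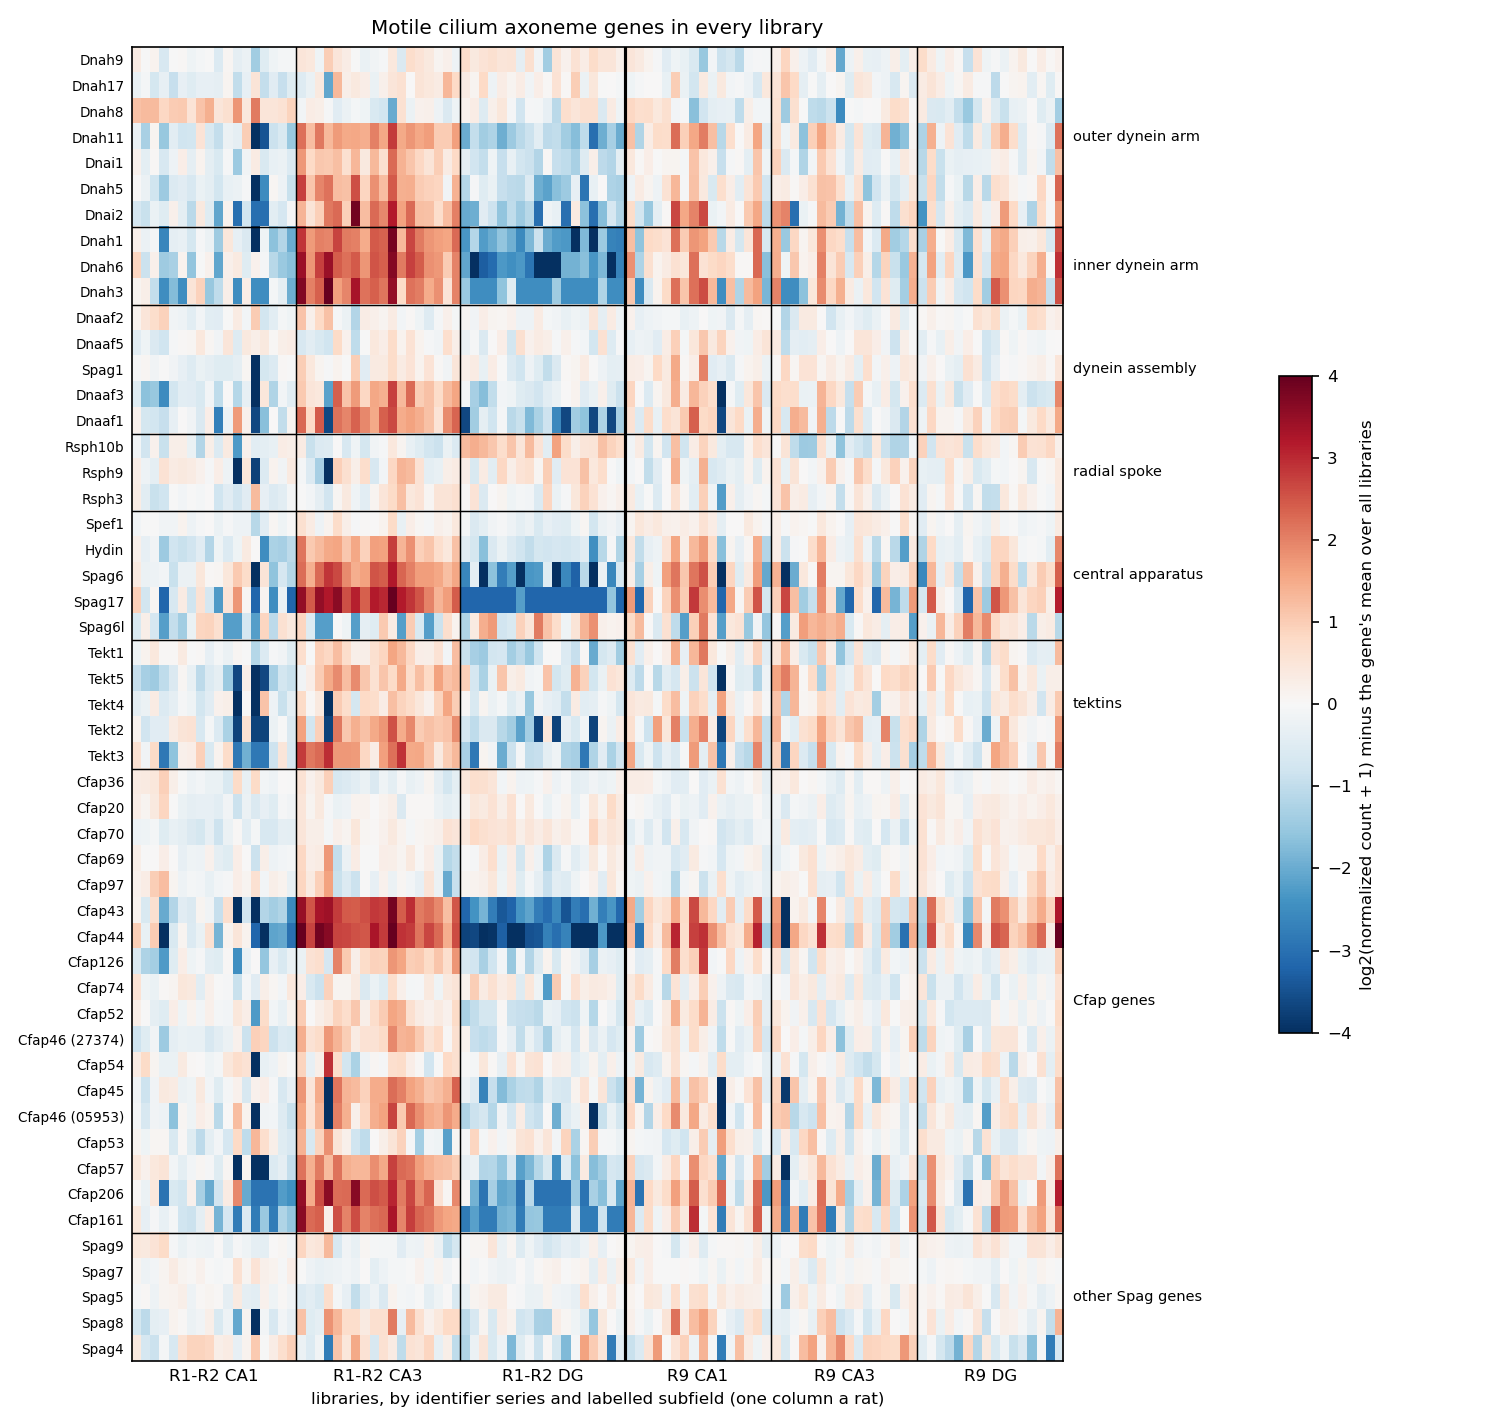
Each row is 1 of the 51 tested axoneme genes, grouped by role, and each column is 1 library, grouped by identifier series and labelled subfield; the color is log2(normalized count + 1) minus the gene's mean over all libraries. The CA3 block of the R1-R2 series is red for most dynein, central apparatus, tektin and Cfap genes and the DG block beside it is blue, whereas the 3 blocks of the R9 series are mixed.

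The order of the subfields was also counted within rats. In all 18 R1-R2 rats CA3 had the highest value of the 3 subfields for 16 of the 51 genes: Cfap126, Cfap161, Cfap206, Cfap43, Cfap44, Cfap57, Dnah1, Dnah11, Dnah3, Dnah5, Dnah6, Dnai1, Dnai2, Hydin, Spag17 and Spag6. Over all 16374 genes, 0.934% did so. In the 16 R9 rats no axoneme gene was highest in the same subfield throughout, whether CA3 (0% of all genes), CA1 (0.0122%) or DG (0.0244%). Across the R1-R2 libraries, every CA3 value lay above every DG value for 15 axoneme genes (0.892% of all genes) and above every CA1 value for 10 (0.434%). In the R9 series the counts were 0 and 0, as over all genes (0% and 0%).

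Among the outer dynein arm genes, Dnai1 (ENSRNOG00000013734), an intermediate chain of the arm, had normalized counts of 53.8, 88 and 209 (lowest, median and highest of 18 libraries) in CA3 of the R1-R2 rats. Its values were 14.9, 35.1 and 53.6 in CA1 and 16.9, 23.9 and 50.3 in DG, so that every CA3 library stood above every library of the other subfields. The log2 difference was 1.3 ± 0.16 (SE, adjusted p = 1.94e-09) against CA1 and 1.71 ± 0.16 (SE, adjusted p = 2.20e-13) against DG. Within the R9 series, with 16 libraries a subfield, Dnai1 was 17.8, 39.96 and 89.9 in CA3, 22.3, 45.3 and 95.6 in CA1 and 19.3, 35.4 and 97.3 in DG, and the 3 groups overlapped. The difference between the series was 1.47 ± 0.23 (SE, adjusted p = 1.65e-05) for CA3 against CA1.

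Dnah11 (ENSRNOG00000005451), an outer arm heavy chain, followed the same layout: 85.7, 126 and 297 in CA3, 0, 26.2 and 84.2 in CA1 and 4.37, 16 and 31.2 in DG of the R1-R2 rats. CA3 was again above every other library. The CA3 difference was 2.61 ± 0.31 (SE, adjusted p = 6.83e-10) against CA1 and 3.08 ± 0.31 (SE, adjusted p = 2.32e-12) against DG. Among the R9 libraries, Dnah11 ran 10.5, 49.3 and 129 in CA3, 17.7, 70.03 and 201 in CA1 and 17.2, 42.5 and 195 in DG. Dnah5 and Dnai2 were also called higher in CA3 than in both other subfields of the R1-R2 rats.

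Among the other outer arm heavy chains Dnah8 (ENSRNOG00000000542), best known from sperm, ran the other way: in the R1-R2 rats it was 87, 128 and 279.6 in CA1 but 15.3, 57.9 and 99.6 in CA3 and 30.6, 67.8 and 104 in DG. CA1 was the highest subfield in 16 of 18 rats. Its log2 difference for CA3 against CA1 was -1.21 ± 0.17 (SE, adjusted p = 1.30e-07), and the R9 rats had -0.17 ± 0.24 (SE, adjusted p = 0.760). The difference between the series was -1.04 ± 0.26 (SE, adjusted p = 0.00449), but 0.27 without the 22 libraries. Dnah17 (ENSRNOG00000003028) had medians within 87.9 and 143 in all 6 groups, with calls of 0.65 ± 0.17 (SE, adjusted p = 0.00330) for CA3 against CA1 and -0.63 ± 0.17 (SE, adjusted p = 0.00703) for CA1 against DG in the R1-R2 rats. Dnah9 (ENSRNOG00000004171) was higher in CA3 than in CA1 of the R1-R2 rats, at 0.41 ± 0.14 (SE, adjusted p = 0.0283), and higher in DG than in CA1 over all rats, the log2 difference of CA1 against DG being -0.46 ± 0.11 (SE, adjusted p = 9.60e-04).

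All 3 inner arm heavy chains with values, Dnah1, Dnah3 and Dnah6, were called higher in CA3 than in both other subfields of the R1-R2 rats. Dnah6 (ENSRNOG00000015581) had 76.2, 202 and 482 in CA3, 7.98, 30.9 and 68.4 in CA1 and 0, 5.49 and 10.9 in DG. No CA3 library fell into the range of CA1 or DG. Its differences were 2.92 ± 0.32 (SE, adjusted p = 7.12e-11) for CA3 against CA1, 5.42 ± 0.32 (SE, adjusted p = 6.15e-21) for CA3 against DG and 2.5 ± 0.32 (SE, adjusted p = 1.16e-08) for CA1 against DG. In the R9 rats Dnah6 was 12.8, 49 and 152 in CA3, 10.9, 56.3 and 187 in CA1 and 6.76, 61.6 and 286 in DG. These groups overlapped, and the highest subfield was CA1 in 6 of the rats, CA3 in 3 and DG in 7.

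Dnah1 (ENSRNOG00000026914) was 111, 187 and 645 in CA3, 0, 35.2 and 61 in CA1 and 0, 9.65 and 24.1 in DG of the R1-R2 rats, with 3.08 ± 0.35 (SE, adjusted p = 1.90e-10) for CA3 against CA1. Dnah3 (ENSRNOG00000050426) had values of 7.18, 22.9 and 159 in CA3 and 0, 0 and 2.99 in DG, and CA3 against DG gave 4.41 ± 0.34 (SE, adjusted p = 1.30e-16). Both had R9 medians between those of CA3 and DG in the R1-R2 rats.

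Of the 5 genes that build dyneins in the cytoplasm before they enter the cilium, Dnaaf1 and Dnaaf3 were called higher in CA3 than in CA1 and DG of the R1-R2 rats. Dnaaf3 (ENSRNOG00000038600) had 7.66, 88.1 and 254 in CA3, 0, 25.4 and 51.5 in CA1 and 10.7, 27 and 43.2 in DG, and some CA3 libraries fell into the range of the others. Its CA3 difference was 2.13 ± 0.32 (SE, adjusted p = 4.34e-07) against CA1. Spag1 (ENSRNOG00000010078) was higher in CA3 than in CA1, at 0.89 ± 0.29 (SE, adjusted p = 0.0184). Dnaaf2 (ENSRNOG00000028155) and Dnaaf5 (ENSRNOG00000021312) were not called in any R1-R2 subfield comparison: Dnaaf2 had medians of 116, 131 and 115 in CA1, CA3 and DG. Within the R9 series, Dnaaf2 was lower in CA3 than in DG, at -0.42 ± 0.12 (SE, adjusted p = 0.00714).

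The radial spoke genes are 4, of which 3 were tested: 1 of the 3 was called in each R1-R2 comparison, and 0, 2 and 0 in the R9 rats for CA3 against CA1, CA3 against DG and CA1 against DG. Rsph10b (ENSRNOG00000001036) was highest in DG: the R1-R2 rats had 108, 154 and 276 in CA3, 41.6, 179 and 262 in CA1 and 152, 359 and 621 in DG. DG was the highest subfield in 17 of 18 R1-R2 rats and in 11 of 16 R9 rats. Its CA3 against DG difference was -1.18 ± 0.17 (SE, adjusted p = 2.03e-07) in the R1-R2 rats and -0.95 ± 0.22 (SE, adjusted p = 0.00103) in the R9 rats, where it was -0.13 and not called without the libraries led by other markers. Rsph9 (ENSRNOG00000019474) had R1-R2 medians of 98.2, 104 and 114, with no call, and in the R9 rats was called higher in CA3 than in DG, at 0.47 ± 0.17 (SE, adjusted p = 0.0372). That difference was -0.14 without the 22 libraries. Rsph3 (ENSRNOG00000018762) was called for CA3 against CA1 in the R1-R2 rats, at 0.47 ± 0.16 (SE, adjusted p = 0.0280). Rsph4a, a head protein of the spoke, was under the mean for the tests over all rats but passed it within CA3, through the R1-R2 rats, whose CA3 values were 2.12, 11.4 and 28.4, against 0, 1.25 and 9.46 in the R9 rats. It was named after its values were seen, and these levels are a description; it is counted in the comparison of the series within CA3 below.

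In the central apparatus, Hydin (ENSRNOG00000017178), a very large protein of the central pair, had 148, 275 and 757 in CA3, 19.1, 70.4 and 144 in CA1 and 19.7, 67.9 and 108 in DG of the R1-R2 rats. CA3 stood above both other groups without overlap. The log2 difference was 2.05 ± 0.20 (SE, adjusted p = 1.35e-12) against CA1 and 2.19 ± 0.20 (SE, adjusted p = 7.34e-14) against DG. Among the R9 libraries, Hydin was 23.2, 109 and 279 in CA3, 34, 125 and 361 in CA1 and 47.4, 105 and 419.9 in DG, with -0.36 ± 0.29 (SE, adjusted p = 0.545) for CA3 against CA1. The series differed in this contrast by 2.42 ± 0.35 (SE, adjusted p = 6.83e-06).

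Spag17 (ENSRNOG00000037196), of a central pair projection, had a median of 0 in DG of the R1-R2 rats: its values were 0, 0 and 2.03 there, against 22, 68.8 and 141 in CA3 and 0, 5.75 and 29.7 in CA1. CA3 against DG gave 5.84 ± 0.33 (SE, adjusted p = 2.47e-21) and the difference between the series was 6.56 ± 0.73 (SE, adjusted p = 1.58e-07). In DG of the R9 rats Spag17 was 0, 13.6 and 78.1. Spag6 (ENSRNOG00000025787) was 41.3, 70.2 and 168 in CA3, 0, 15.5 and 37.2 in CA1 and 0, 2.39 and 14.4 in DG of the R1-R2 rats. Spag6 and Spag6l are near-identical copies whose reads the counting could split, so the values of both are uncertain. Spef1 (ENSRNOG00000021247), a microtubule-binding protein, changed much less, with 0.36 ± 0.10 (SE, adjusted p = 0.00410) for CA3 against CA1 in the R1-R2 rats.

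Tektins are filament proteins inside the doublets. Tekt1 (ENSRNOG00000014973) was 43.9, 77 and 144 in CA3, 21.1, 46.2 and 64.1 in CA1 and 10.9, 26 and 48.4 in DG of the R1-R2 rats, and CA3 was the highest in 17 of 18. Its difference was 1.56 ± 0.17 (SE, adjusted p = 1.75e-11) against DG. Tekt4 (ENSRNOG00000018792) was not called in the R1-R2 subfield comparisons, with medians of 20.3, 42.5 and 20.4. Tekt5 (ENSRNOG00000002571) was called in both series: it was 0, 14.7 and 35 in CA1 and 26.8, 66.3 and 113 in CA3 of the R1-R2 rats, and 0, 20.6 and 41.7 in CA1 and 11.5, 49.6 and 125 in CA3 of the R9 rats. CA3 against CA1 gave 2.41 ± 0.31 (SE, adjusted p = 9.64e-09) and 1.3 ± 0.30 (SE, adjusted p = 0.00601). CA1 was also below DG in both series, at -1.47 ± 0.31 (SE, adjusted p = 3.44e-04) and -1.04 ± 0.30 (SE, adjusted p = 0.00683).

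The Cfap genes were the largest class, with 19 rows. Cfap44 (ENSRNOG00000028077) and Cfap43 (ENSRNOG00000036585) form the tether that holds an inner arm dynein to its doublet. Cfap44 was 69.96, 169.7 and 628 in CA3, 0, 18.4 and 51.8 in CA1 and 0, 0.852 and 4.32 in DG of the R1-R2 rats. Every CA3 library was above every other library. In the R9 rats it was 0, 42.4 and 195 in CA3, 2.52, 60.3 and 219.7 in CA1 and 3.38, 51.4 and 500.2 in DG, and the subfield with the highest value was CA1 in 6 rats, CA3 in 3 and DG in 7. The log2 difference in the R1-R2 rats was 4.02 ± 0.40 (SE, adjusted p = 6.58e-12) against CA1 and 6.79 ± 0.40 (SE, adjusted p = 1.19e-20) against DG, and in the R9 rats -0.94 ± 0.58 (SE, adjusted p = 0.396) and -0.94 ± 0.58 (SE, adjusted p = 0.222). The series differed by 4.96 ± 0.66 (SE, adjusted p = 2.17e-06) and 7.73 ± 1.04 (SE, adjusted p = 2.39e-06). Without the 22 libraries these values were 9.64 and 12.39, and there the R9 value in CA3 is a single library, in which Cfap44 was at 0.

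Cfap43 was 104, 265 and 644 in CA3, 0, 24.3 and 70.9 in CA1 and 3.13, 5.66 and 11.7 in DG of the R1-R2 rats, and 0, 46.8 and 174 in CA3, 16.4, 78.1 and 281 in CA1 and 13.5, 86.6 and 429 in DG in the R9 rats. As for its partner, CA3 did not overlap the other groups in the R1-R2 series and did in the R9 series. The series differed by 4.71 ± 0.57 (SE, adjusted p = 4.69e-07) for CA3 against CA1 and 6.26 ± 0.67 (SE, adjusted p = 8.51e-08) for CA3 against DG. Cfap161 (ENSRNOG00000012301), a protein of the doublet lumen, was 6.9, 31.5 and 84 in CA3 but 0, 0 and 3.76 in DG of the R1-R2 rats, and the series differed by 5.27 ± 0.58 (SE, adjusted p = 1.08e-07). Cfap206 (ENSRNOG00000009061), at the base of a radial spoke, was 7.18, 37.5 and 95.8 in CA3 and 0, 2.88 and 28.3 in CA1 of the R1-R2 rats, and the series differed by 3.97 ± 0.56 (SE, adjusted p = 4.77e-06) for CA3 against CA1.

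Cfap126 (ENSRNOG00000034221), Cfap52 (ENSRNOG00000037718) and Cfap46 (ENSRNOG00000027374 and ENSRNOG00000005953) moved the same way with smaller differences. CA3 against CA1 in the R1-R2 rats gave 1.55 ± 0.22 (SE, adjusted p = 8.77e-08) for Cfap126 and 0.74 ± 0.17 (SE, adjusted p = 6.20e-04) for Cfap52. Cfap46 in the row with the higher mean gave 1.29 ± 0.17 (SE, adjusted p = 2.53e-08), and the second row was called as well. Cfap45 and Cfap57 were also called higher in CA3 than in both other subfields.

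Other Cfap genes differed less between the subfields. Cfap70 (ENSRNOG00000007046) was 416, 495 and 656 in CA3, 248, 338 and 451 in CA1 and 458, 603 and 796 in DG of the R1-R2 rats. It was lower in CA1 than in DG in both series, at -0.81 ± 0.08 (SE, adjusted p = 1.46e-12) and -0.64 ± 0.10 (SE, adjusted p = 6.29e-06), the groups of the R1-R2 rats not overlapping. Cfap20 (ENSRNOG00000042179) was likewise lower in CA1 than in DG over all rats, at -0.4 ± 0.07 (SE, adjusted p = 1.18e-06). Cfap36 (ENSRNOG00000003901) was not called in the subfield comparisons. Cfap97 (ENSRNOG00000032192) was lower in CA1 than in DG of the R9 rats, at -0.46 ± 0.15 (SE, adjusted p = 0.0183), and that contrast differed between the series by 0.71 ± 0.19 (SE, adjusted p = 0.0352).

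Among the other Spag genes, Spag9 (ENSRNOG00000002749) was 2327, 4308 and 11539 in CA3, 3524, 4423 and 7888 in CA1 and 2778, 4080.4 and 6480.1 in DG of the R1-R2 rats, with overlapping groups and no subfield call. Spag7 (ENSRNOG00000004246) was lower in CA3 than in CA1, at -0.24 ± 0.07 (SE, adjusted p = 0.00730), and Spag5 (ENSRNOG00000011777) lower in CA3 than in DG, at -0.3 ± 0.11 (SE, adjusted p = 0.0412), in those rats. Spag4 (ENSRNOG00000048056), a nuclear envelope protein, was higher in CA3 than in DG of the R9 rats, at 1.5 ± 0.32 (SE, adjusted p = 5.22e-04). That difference was 0.35 and was not called without the 22 libraries. Spag8 was called higher in CA3 than in both other subfields of the R1-R2 rats. Spag11a and Spag11b, epididymal proteins, had medians of 0 in every group.

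**Figure D2:**
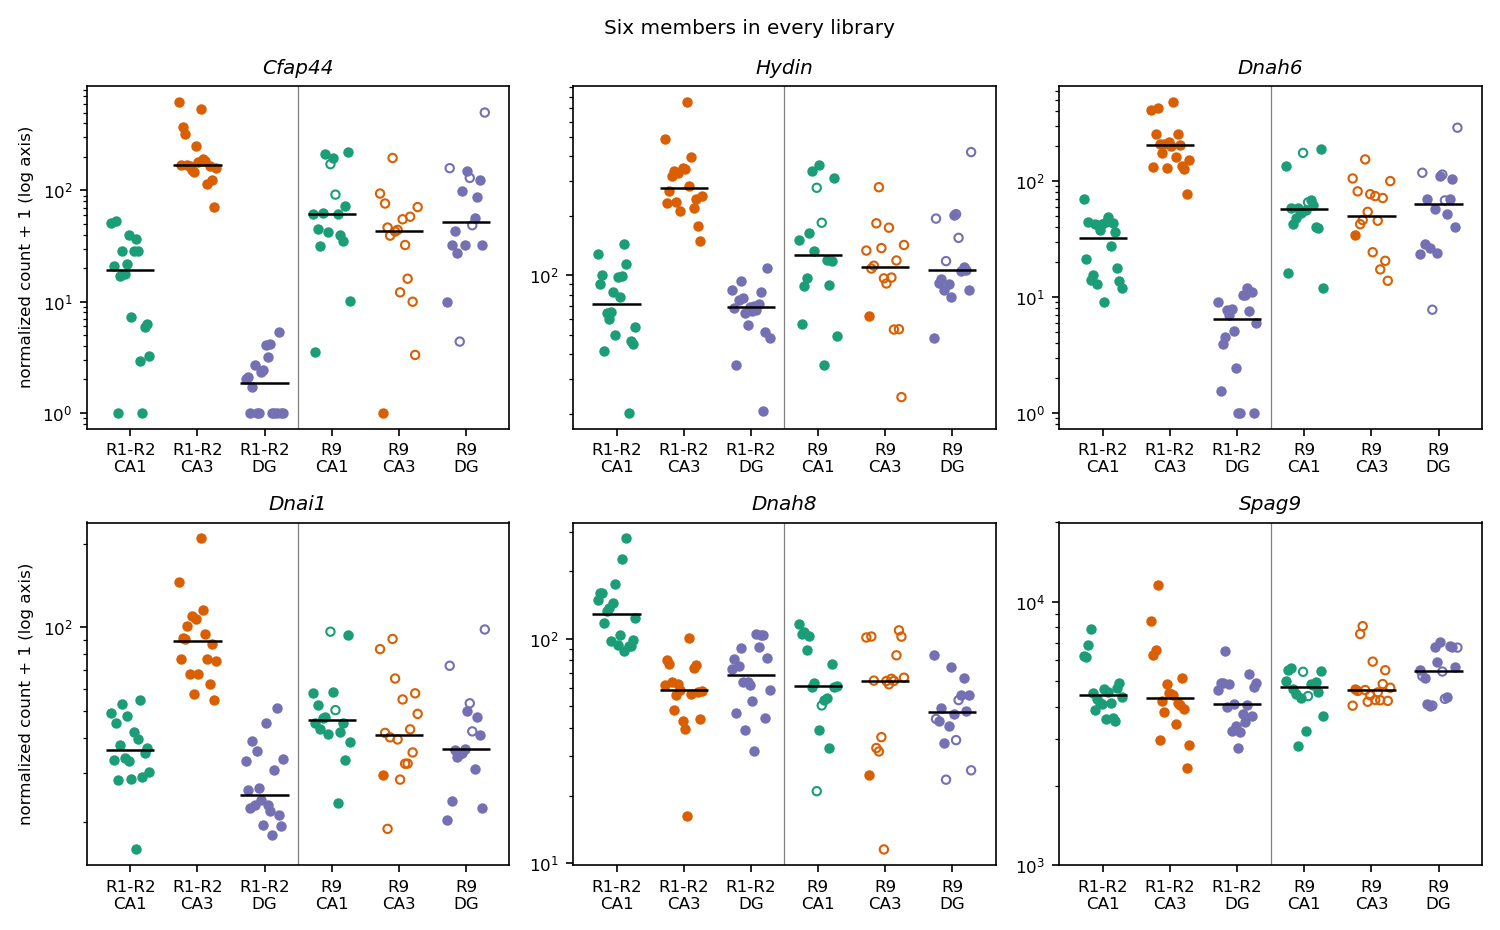
Each point is 1 library, the vertical axis is the normalized count plus 1 on a log scale, bars are medians, and the groups are the 3 subfields of the R1-R2 and R9 series; open points are libraries in which the markers of another subfield were the highest. Cfap44, Hydin, Dnah6 and Dnai1 are highest in CA3 of the R1-R2 rats and overlap in the R9 rats, Dnah8 is highest in CA1 of the R1-R2 rats, and Spag9 overlaps in all 6 groups.

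Summed up by role in the R1-R2 rats, the genes called higher in CA3 than in CA1 were 6 of 7 outer arm, 3 of 3 inner arm, 3 of 5 assembly, 1 of 3 radial spoke, 4 of 4 central apparatus, 4 of 5 tektin, 11 of 18 Cfap and 1 of 5 other Spag genes tested. Within the R9 series, the matching counts were 0, 0, 0, 0, 0, 1, 0 and 0. The genes called higher in CA3 than in both CA1 and DG of the R1-R2 rats numbered 28 of 50, where 6.59% of all genes were so called. In the R9 rats 0 of 51 were, beside 0.761% of all genes. That choice of 28 rests on the R1-R2 libraries. Among the R9 libraries, these 28 genes had log2 differences for CA3 against CA1 from -0.94 to 1.30, with a median of -0.30; 6 were positive and 22 negative.

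**Figure D3:**
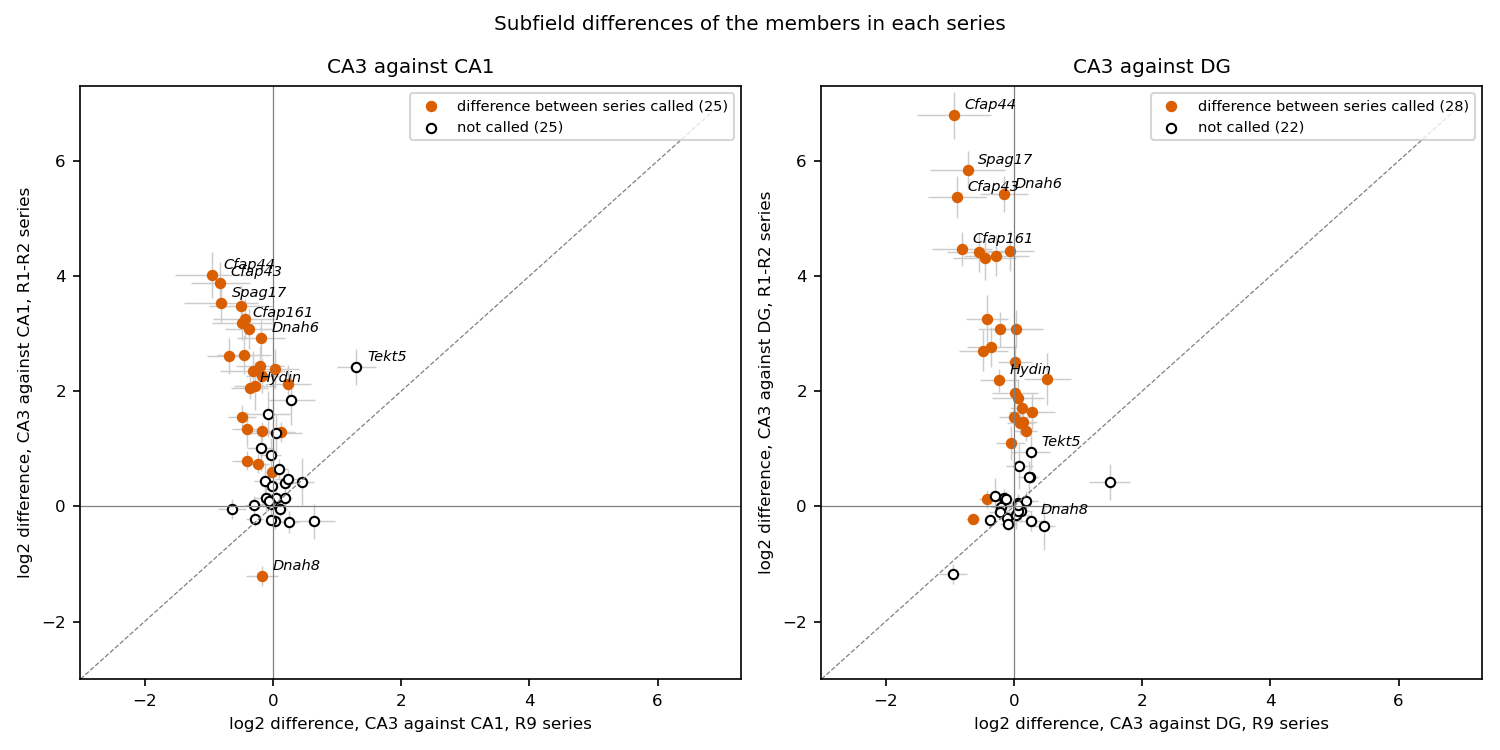
Each point is an axoneme gene tested in both series (50 of the 51), with its log2 difference in the R9 rats on the horizontal axis and in the R1-R2 rats on the vertical axis, for CA3 against CA1 on the left and CA3 against DG on the right; bars are standard errors and the dashed line marks equal differences. The orange points, whose difference between series was called (25 and 28), lie mostly near 0 on the horizontal axis and up to 4.02 and 6.79 on the vertical axis.

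Compared between the series within a subfield, the axoneme genes were higher in CA3 of the R1-R2 rats and lower in their DG. In CA3, 26 of 51 were called, all 26 higher in the R1-R2 rats (51.0%, beside 19.2% of all genes). Among the 26 is Rsph4a, which passed the mean within CA3 through the R1-R2 rats, so its call there is a description. In DG, 26 of 50 were called, 24 of them lower in the R1-R2 rats (52.0%, beside 19.0%), and in CA1 13 of 50, 12 of them lower (26.0%, beside 7.07%). Cfap44 differed by 2.77 ± 0.46 (SE, adjusted p = 2.71e-05) in CA3, -4.96 ± 0.42 (SE, adjusted p = 1.88e-10) in DG and -2.19 ± 0.56 (SE, adjusted p = 0.0115) in CA1. Dnah8 was higher in CA1 of the R1-R2 rats, at 1.06 ± 0.20 (SE, adjusted p = 5.92e-04). Without the 22 libraries the R9 value in CA3 is a single library. The median log2 difference in CA3 was then 0.93 for the axoneme genes, beside 0.033 for all genes. Under the same setting the counts were 14 of 45 in DG (31.1%, beside 19.0%) and 7 of 50 in CA1 (14%, beside 4.73%). Without the rat whose R9 CA1 library lists 13 tested axoneme genes at 0, the CA1 count was 20.

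Pooled over both series, 26 axoneme genes were higher and 3 lower in CA3 than in CA1 (56.9%, beside 15.0% of all genes). Against DG, 29 were higher and 4 lower (64.7%, beside 28.9%), and for CA1 against DG 9 were higher and 7 lower (31.4%, beside 28.5%). Without the 22 libraries they were 34, 32 and 16 of 50, or 68%, 64% and 32% beside 25.2%, 29.3% and 29.0% of all genes.

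Libraries of a group also differed together. In DG of the R9 rats, the library of 1 young rat had the highest value of the 16 for 25 of the 28 genes. It was 1 of the 5 DG libraries whose markers pointed to another subfield. In CA3 of the R9 rats, 1 AU rat was highest for 17 of the 28, and in CA3 of the R1-R2 rats 1 young rat was highest for 18. In the other 3 groups no library led for more than 9 genes. These genes were chosen on the R1-R2 CA3 libraries, so their shared rank there is a description.

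Other genes of motile cilia, 46 listed and 32 tested, were called in the same direction. In the R1-R2 rats 18 of the 32 were higher in CA3 than in CA1 and 0 lower (56.2%, beside 21.8% of all genes), and 19 were higher than in DG and 0 lower (59.4%, beside 22.2%). The difference between the series was called for 16 in each contrast, all 16 toward CA3 of the R1-R2 rats (50%, beside 13.7% and 18.2% of all genes). Among them, picked after their values were seen, were Dnali1, an inner arm light chain (2.16 ± 0.43 (SE, adjusted p = 4.29e-04) between the series for CA3 against DG), and Ttc25, a docking protein of the outer arm, at 2.54 ± 0.41 (SE, adjusted p = 2.74e-05).

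Of 8 regulators of multiciliated cells tested, 3 were called for CA3 against CA1 and 3 for CA3 against DG in the R1-R2 rats, 37.5% beside 21.8% and 22.2% of all genes. Tp73, which acts upstream in the program, and Ccdc78, of the centriole-producing deuterosome, were higher in CA3 than in CA1 and DG of the R1-R2 rats. Tp73 gave 4.07 ± 0.34 (SE, adjusted p = 2.78e-15) against DG and Ccdc78 3.77 ± 0.28 (SE, adjusted p = 5.04e-17). In the R9 rats Tp73 was lower in CA3 than in DG, at -1.74 ± 0.51 (SE, adjusted p = 0.00966). Rfx3, a ciliary transcription factor, was lower in CA3 of the R1-R2 rats than in CA1 and DG, at -1.23 ± 0.14 (SE, adjusted p = 1.43e-10) and -2.04 ± 0.14 (SE, adjusted p = 1.09e-18). Genes of intraflagellar transport and the primary cilium build and fill cilia of every kind. Of 35 tested, 3 were higher and 5 lower in CA3 than in CA1 of the R1-R2 rats, and 3 higher and 5 lower than in DG, 22.9% in each comparison beside 21.8% and 22.2% of all genes.

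Promoter sequences were read to show what the axoneme genes share in letters. RefSeq windows on build GRCr8, from 250 bases before to 50 after the start, were found for 45 of the 55 symbols. The X-box half-site GTTGCC, bound by RFX factors as part of a longer site, was present on either strand in 18 of the 45 and in 12.2% of all 33469 windows. The forkhead letters TGTTTAC were present in 2 of the 45 and in 3.78% of all windows. The 45 are 1 window per symbol, whereas the shares of all windows were taken without dropping repeated symbols. Of the 28 genes called higher in CA3 of the R1-R2 rats than in both other subfields, 23 symbols had a window, and 10 of them held the half-site; of the other 22 windows, 8 did. A match is a description of the letters, not a binding site. The windows of Cfap44, Cfap161 and Hydin hold it and that of Cfap43 does not; these 4, whose levels are given above, are shown as 3 windows with the letters and 1 without. They stand at chr11:69789856-69790155 (- strand), chr1:147177772-147178071 (- strand), chr19:55146216-55146515 (+ strand) and chr1:256653767-256654066 (- strand), and capitals mark GGCAAC, the half-site as read from the other strand. The counting used build rn5 and the windows GRCr8.
Cfap44: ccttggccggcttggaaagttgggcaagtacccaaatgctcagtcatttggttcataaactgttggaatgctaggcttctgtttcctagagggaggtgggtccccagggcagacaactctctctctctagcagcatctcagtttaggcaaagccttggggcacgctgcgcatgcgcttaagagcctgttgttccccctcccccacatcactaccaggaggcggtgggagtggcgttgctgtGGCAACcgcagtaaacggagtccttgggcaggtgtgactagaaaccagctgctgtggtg
Cfap161: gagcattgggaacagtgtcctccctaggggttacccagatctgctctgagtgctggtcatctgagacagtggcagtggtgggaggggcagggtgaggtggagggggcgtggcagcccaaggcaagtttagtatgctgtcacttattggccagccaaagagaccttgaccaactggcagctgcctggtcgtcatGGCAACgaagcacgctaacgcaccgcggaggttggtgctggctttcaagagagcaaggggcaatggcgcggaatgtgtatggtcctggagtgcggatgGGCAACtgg
Hydin: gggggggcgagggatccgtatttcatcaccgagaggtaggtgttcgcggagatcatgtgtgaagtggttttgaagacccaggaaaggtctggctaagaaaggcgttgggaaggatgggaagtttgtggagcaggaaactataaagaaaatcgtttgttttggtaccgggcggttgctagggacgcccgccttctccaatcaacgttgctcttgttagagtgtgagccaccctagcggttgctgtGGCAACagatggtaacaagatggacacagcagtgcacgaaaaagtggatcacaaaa
Cfap43: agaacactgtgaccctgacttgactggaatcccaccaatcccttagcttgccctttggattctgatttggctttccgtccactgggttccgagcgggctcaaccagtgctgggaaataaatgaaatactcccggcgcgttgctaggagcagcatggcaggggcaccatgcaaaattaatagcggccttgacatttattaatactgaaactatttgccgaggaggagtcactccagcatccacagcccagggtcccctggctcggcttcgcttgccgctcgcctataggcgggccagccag

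Markers of ependymal cells that the symbol rule does not take moved with the axoneme genes in part. Of 10 tested, Fam183b, Dynlrb2, Tmem212, Mlf1, Pifo and Ccdc153 were higher in CA3 than in CA1 and DG of the R1-R2 rats. Against CA1, Tm4sf1 and Rarres2 were lower, and against DG Calml4. Of all genes, 21.8% were called for CA3 against CA1 and 22.2% for CA3 against DG in these rats. Tmem212 was 37.6, 80.5 and 195 in CA3, 0, 5.69 and 27.7 in CA1 and 0, 0 and 1.69 in DG, at 0 in 16 of 18 DG libraries and in 0 of 18 CA3 libraries. Within the R9 series, it was 1.5, 16.9 and 78.4 in CA3, 0, 22.4 and 76.6 in CA1 and 0, 18.8 and 101.8 in DG. The summed level of the 11 ependymal genes with values was 310.3 to 1307 in CA3, 215 to 791 in CA1 and 312 to 477 in DG of the R1-R2 rats, and 312 to 1082, 355 to 921 and 265 to 1015 in the same subfields of the R9 rats. Their part in the result was not tested.

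Markers of the choroid plexus epithelium were laid out differently. In the R1-R2 rats 2 of 11 tested, Folr1 and Clic6, were higher in CA3 than in CA1 and DG, and 0 were lower. Ttr, its most abundant transcript, was 35.4, 359 and 2005 in CA3, 89.6, 570.4 and 164720 in CA1 and 51.1, 256 and 4296 in DG of the R9 rats, and 0, 100.7 and 13330 in CA3, 0, 24.9 and 10136 in CA1 and 0, 14.2 and 2650 in DG in the R1-R2 rats. The summed level of the list was 58.2 to 15055 in CA3, 1.92 to 11517 in CA1 and 34 to 2702 in DG of the R1-R2 rats. In the R9 series it was 108 to 2284, 176 to 180530 and 111 to 4836. Sostdc1 was at 0 in 8 of 18 CA3 libraries of the R1-R2 rats. All 6 oligodendrocyte genes were higher in CA3 than in CA1 and DG of the R1-R2 rats, with a summed level of 111030 to 336340 in CA3, 55886 to 135730 in CA1 and 35430 to 76476 in DG. Across the R9 libraries that sum was 47309 to 198170, 88270 to 220050 and 56187 to 182080. Of 5 thalamic genes tested, 2 were higher in CA3 than in CA1 and 3 higher than in DG, with a summed level of 938 to 2029 in CA3, 588 to 950.1 in CA1 and 376 to 623 in DG of the R1-R2 rats. Meningeal fibroblast genes gave 1 higher and 1 lower of 10 for CA3 against CA1, endothelial genes 3 lower of 5 and astrocyte genes 0 of 6. Of all genes, 21.8% were called for CA3 against CA1 and 22.2% for CA3 against DG in the R1-R2 rats. The part of these cell types in the axoneme result was not tested.

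**Figure D4:**
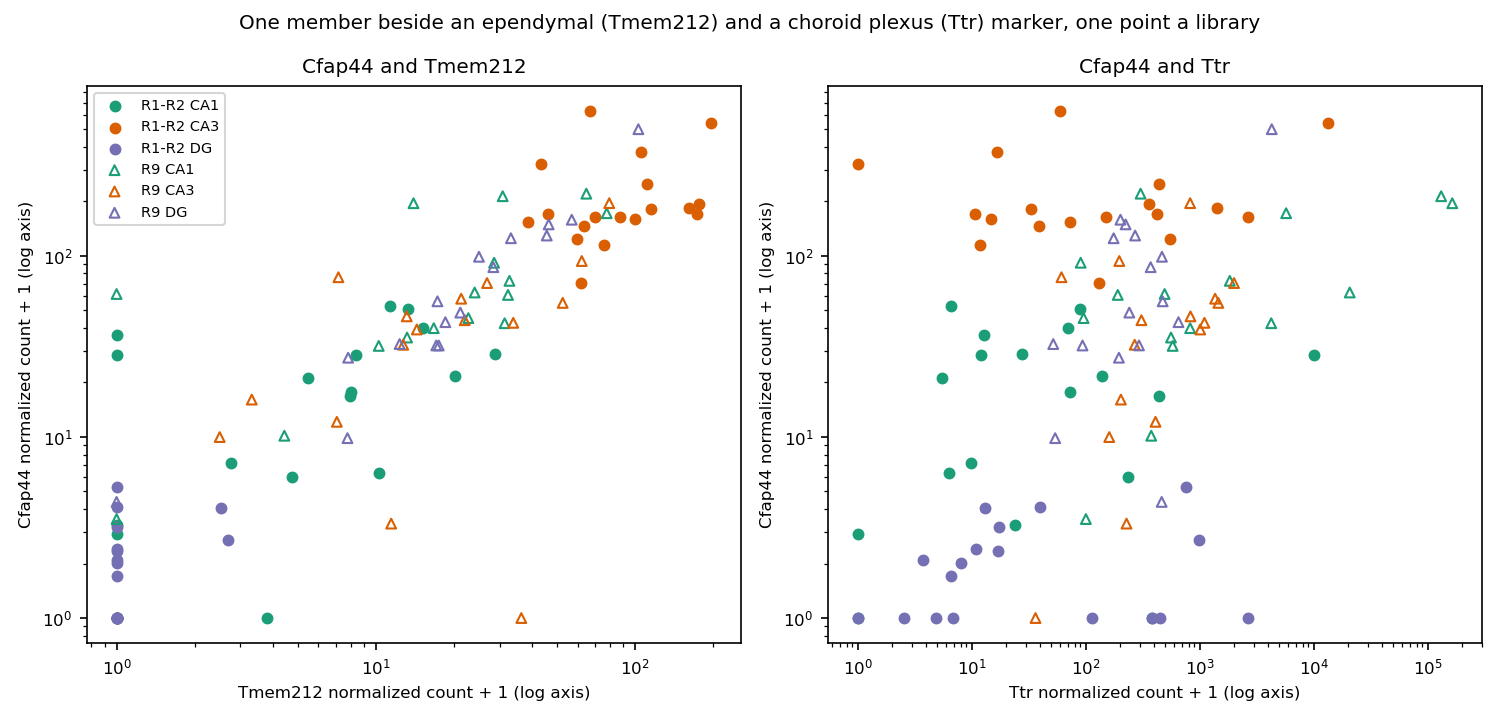
Each point is 1 library, with the normalized count plus 1 of Cfap44 on the vertical axis and of Tmem212 (left, an ependymal marker) or Ttr (right, a choroid plexus marker) on the horizontal axis, all on log scales; filled circles are R1-R2 and open triangles R9 libraries, colored by subfield. CA3 libraries of the R1-R2 rats stand at the upper right with Tmem212 between 37.6 and 195, DG libraries of those rats at the lower left, and with Ttr the same CA3 libraries spread from 0 upward. The 2 markers were chosen after their values were seen.

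Age and memory status were compared within each subfield. No axoneme gene was called for aged against young in CA1, CA3 or DG (0 of 50, 51 and 50; limma), where 0.0183%, 0.00607% and 0.0741% of all genes were called. At an unadjusted p under 0.05 the counts were 0, 1 and 4 (0, 1.96% and 8%, beside 3.43%, 1.53% and 8.33% of all genes). edgeR and DESeq2 on the recovered reads also called 0 in each, with the same unadjusted counts of 0, 1 and 4. By edgeR these stood beside 828 of 16385, 436 of 16471 and 1412 of 16192 genes. By DESeq2 they stood beside 961 of 16221, 391 of 16206 and 1550 of 16168. By limma the log2 differences were mostly toward lower values in aged rats. Negative were 40 of 50 in CA1, 44 of 51 in CA3 and 36 of 50 in DG. The medians were -0.15, -0.22 and -0.12, beside -0.033, -0.031 and -0.004 for all genes. In CA1 the median was -0.015 by edgeR and -0.0011 by DESeq2, beside 0.019 and 0.023 for all genes. In CA3 edgeR and DESeq2 both gave -0.21, and in DG they gave -0.13 and -0.15. By series, the CA1 median by limma was 0.040 in the R9 rats and -0.30 in the R1-R2 rats. The CA3 medians were -0.18 and -0.34 and the DG medians -0.13 and -0.043, in the same order. Genes measured in 1 library are not independent, so the counts of negative values are a description. Spag6l in DG came nearest to a call, at 1.19 ± 0.28 (SE, adjusted p = 0.0925) for aged against young; it was picked after its value was seen, and its reads can be split with Spag6.

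For AI against AU rats, 0 axoneme genes were called in CA1, CA3 and DG, as were 0 of all genes (0%, 0% and 0%). At an unadjusted p under 0.05 the counts were 3, 0 and 2 (5.88%, 0 and 4%, beside 2.08%, 1.61% and 1.77% of all genes). edgeR and DESeq2 called 0 in each. The unadjusted counts by edgeR were 3, 0 and 6, beside 396 of 16406, 315 of 16436 and 279 of 16182 genes. By DESeq2 they were 4, 0 and 5, beside 436 of 16029, 358 of 16220 and 325 of 16165. With the series as a covariate limma gave 4, 1 and 10, beside 430 of 16406, 302 of 16436 and 457 of 16182. Within the R9 series alone, DG had 22 of 50 axoneme genes at an unadjusted p under 0.05, 21 of them higher in AI (44.0%, beside 3.70% of all genes), and 0 passed the adjustment. The median log2 difference there was 0.47 for the axoneme genes and 0.0028 for all genes. The R1-R2 rats alone had 0 of 42 in DG, beside 1.23% of all genes, with a median of -0.063. CA3 of the R9 rats alone had 7 of 51, all 7 lower in AI (13.7%, beside 2.72% of all genes). Its median was -0.36. In CA1 of the R9 rats alone 2 of 52 were under it, 1 higher and 1 lower (3.85%, beside 2.19%), with a median of -0.30. For the R1-R2 rats alone CA3 had 0 of 51, beside 0.723%, with a median of 0.041. Their CA1 had 4 of 45, 2 higher and 2 lower (8.89%, beside 2.96%), with a median of 0.0066. Among the aged R9 rats, DG markers pointed to another subfield for AI rats R9781, R9872 and R9874 and for AU rat R9865. The part of this uneven split in the R9 values was not tested, and genes measured in 1 library are not independent. Over both series without the 22 libraries the count in DG was 0 of 47, with a median of -0.072. Within CA1 the log2 differences ran from -1.60 to 1.06, with -1.6 ± 0.69 (SE, adjusted p = 0.9998) for Spag17, and within DG from -0.41 to 0.75.

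**Figure D5:**
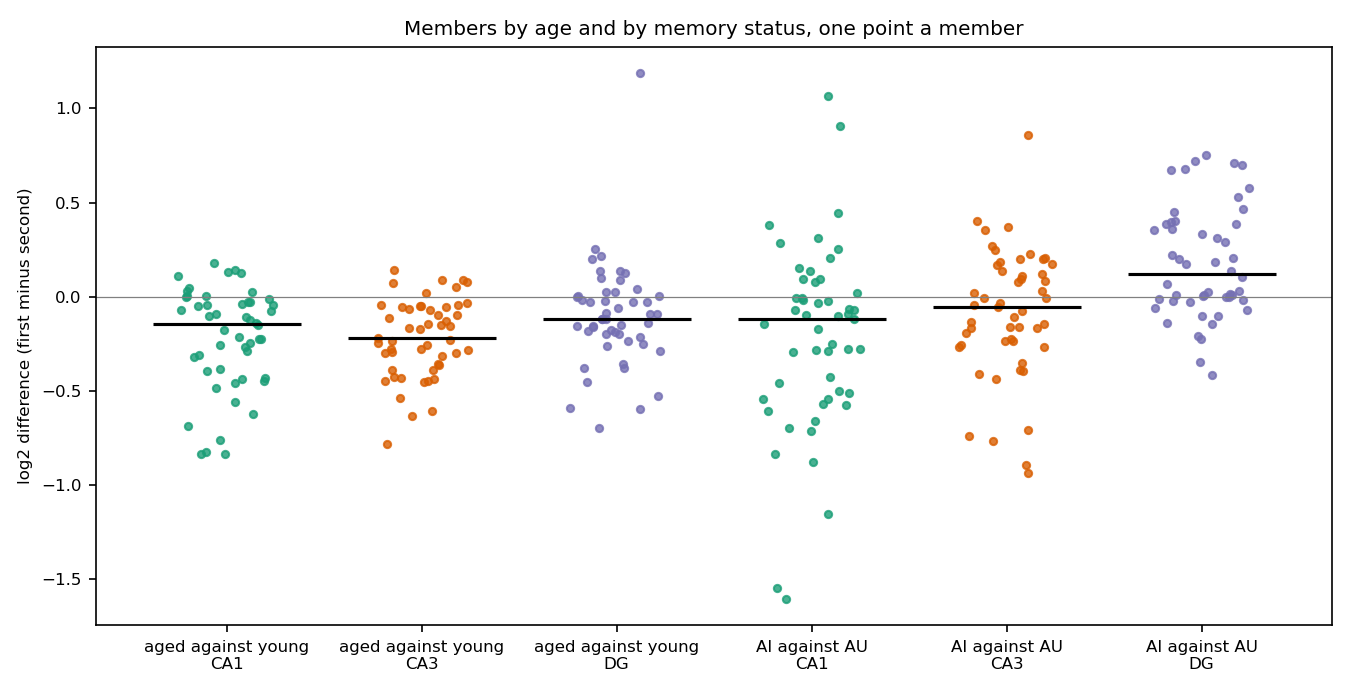
Each point is 1 axoneme gene, the vertical axis is its log2 difference (aged minus young, or AI minus AU) in the named subfield, and bars are medians of the genes. The medians for age lie between -0.22 and -0.12, those for memory status between -0.12 and 0.12, and no point was called.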

How the data were processed

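Poly-A RNA of CA1, CA3 and DG from 34 rats went onto the Ion Proton; the authors aligned the reads to rn5 with TopHat2 and Bowtie2 and counted them on genes with featureCounts 1.4.4. The authors deposited one signal table of normalized counts, the reads divided by a library size factor. Whole reads were recovered from the smallest step within a library, for 100% of the values (tolerance 0.001). No 2 libraries of a group agreed within sampling noise: over 531 pairs the lowest chi-square per gene was 4.632. Columns of the same rat pair the subfields, since they come from one animal; the mean correlation of same-rat deviations was 0.095, 0.052 and 0.054 for the 3 pairs of subfields.

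The axoneme genes and gene lists were chosen with earlier results of these data known. Tests used limma 3.58.1 in R 4.3.3 (eBayes with trend) on log2(normalized count + 1) for genes that averaged 5 or more over the libraries compared, two-sided, with Benjamini-Hochberg adjustment over all genes tested and a threshold of 0.05; differences on this scale understate changes of low genes. The fits were also run on simulated counts, with known changes put only into genes averaging 20 or more reads. Those counts had no pairing within rats, no series and no subfield mismatch, and do not cover these or low genes. Subfield comparisons had no block for the rat; differences between series used differences within rats. edgeR 4.0.16 and DESeq2 1.42.0 were run on the recovered reads. Named with values are the 3 genes of each role with the highest mean and, per comparison and direction, the 3 with the smallest adjusted p. Alternatives were pseudocounts of 0.5 and 5, no filter, a minimum mean of 20, TMM rescaling, the rat as a block, series or condition as covariates, each series alone and each rat left out; leaving out libraries led by another subfield's markers was added after seeing the data. Levels were not compared between genes. Python 3.11.15, numpy 2.4.6, pandas 2.3.3 and matplotlib 3.10.9 were used.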

Additional observations from a re-analysis of the deposited data

Results flagged for a closer look

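In groups of 10 young rats, 34 of 111 gene and subfield combinations (37 named axoneme genes in 3 subfields) had a lowest or highest library far from the others, its gap to the next being over 0.466 of the whole range. Chance flags about 1 in 20 single groups; each group here joins 5 R9 and 5 R1-R2 rats whose levels differ, which that rate leaves out of account, and genes measured in 1 library are not independent. In DG, 17 of them were the library of 1 R9 rat, whose subfield markers pointed to another subfield than its label. Its normalized counts were Dnah11 194.7, Cfap206 67.9, Dnai1 97.33, Tekt1 115.4, Dnah6 286.3, Hydin 419.9, Tekt4 53.19, Spef1 190.1, Spag6 95.06, Dnah1 269.3, Cfap44 500.2, Cfap126 123.4, Cfap43 428.9, Spag17 78.09, Cfap52 99.59, Dnaaf3 144.9 and Dnah3 32.82. In CA1, 11 were the library of another R9 rat, with normalized counts of Cfap206 36.73, Cfap161 36.08, Dnai1 92.79, Hydin 309.3, Spag6 57.35, Dnah1 223.6, Cfap46 86.99, Cfap44 219.7, Cfap43 248.1, Spag17 50.26 and Cfap52 116.

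The other outlying normalized counts were Spef1 at 196.4 in CA1, Dnah9 at 570.8, the lowest, in CA1, Dnah17 at 279.3 in CA3, Dnah1 at 644.6 and Cfap52 at 178.3 in CA3 of 1 rat, and Dnaaf2 at 277.5 in CA3 of another.

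The subfield contrasts differed between the identifier series by a test of the difference itself. It was called for 25 axoneme genes in CA3 against CA1, with log2 differences of 4.71 for Cfap43, 4.96 for Cfap44, 3.97 for Cfap206 and -1.04 for Dnah8. It was called for 28 in CA3 against DG, with 6.26 for Cfap43, 5.27 for Cfap161 and 6.56 for Spag17. It was called for 4 in CA1 against DG, namely Dnah6 (2.48), Cfap97 (0.71), Cfap44 (2.77) and Dnah17 (-0.60). The identifier series and whatever differed between them cannot be told apart.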

How the results depend on the processing

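Of 183 counts under the planned settings other than leaving out a rat, 177 stayed within 1.5 times the main count. With DESeq2 the R9 count for CA3 against CA1 was 2 of 51, beside 1134 of all 16226 genes. The count of series differences in CA1 against DG was 8 of 51, beside 832 of 16374. Between the series in CA1 it was 24 of 50, beside 1737 of 16100. With no filter on low values the series difference in CA1 against DG was called for 2 of 56, beside 532 of 24491. Between the series in DG a minimum mean of 20 gave 16 of 38, beside 2948 of 14021. The cause was not tested, except that the stricter minimum tests fewer genes.

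Columns of the same rat are paired. With the rat as a replicate block CA3 against CA1 had 28 calls over all rats, 1 in R9 and 37 in R1-R2 rats. Of all genes, 2730, 772 and 4194 were called there. CA3 against DG had 34, 7 and 31, beside 5223, 4285 and 4179 of all genes. CA1 against DG had 16, 11 and 18, beside 5200, 5824 and 2789. All genes tested numbered 16374 over all rats, 16421 in R9 and 16344 in R1-R2 rats. With no replicate block the series differences were called for 27, 28 and 1 axoneme genes, beside 2364, 2719 and 27 of all 16374 genes.

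Without the 22 libraries led by another subfield's markers, chosen after seeing the data, the R9 counts were 13 for CA3 against CA1 and 11 for CA3 against DG. The series differences, with no replicate block, were called for 16, 18 and 0 genes, and the counts between series were 7 in CA1, 15 in CA3 and 14 in DG. Directions reversed for Rsph9 in R9 CA3 against DG (-0.14), for the series difference in CA3 against CA1 of Dnah8 (0.27), Cfap70 (-0.12) and Tekt1 (-0.21), for that in CA3 against DG of Cfap70 (-0.16) and Tekt1 (-0.000322), and between series in CA3 for Cfap70 (-0.15) and Tekt1 (-0.63). That setting leaves 1 R9 library labelled CA3, so every count here that involves CA3 of the R9 rats rests on that library. The median log2 differences of the axoneme genes were -0.37 for R9 CA3 against CA1 and -0.14 for R9 CA3 against DG. Those of all genes were -0.035 and -0.050. The median series differences in CA3 against CA1 and against DG were 1.16 and 0.87, beside 0.048 and 0.049. Between series in CA3 the median was 0.93, beside 0.033. The 7 in CA1 and 14 in DG are 14% and 31.1%, beside 4.73% and 19.0% of all genes.

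With each rat left out in turn, the count of series differences in CA1 against DG ran from 1 to 8, and the count between series in CA1 from 9 to 20. The 8 came without the R1-R2 rat, and the 20 without the R9 rat, whose CA1 library lists the most axoneme genes at 0 in its series. Over all rats the counts ran from 24 to 32, 31 to 34 and 14 to 19.

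No label ties a rat to a site, the subfield labels of most R9 CA3 libraries went against the markers, and low values in the libraries with many genes at 0 limit the fold changes of low genes.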
